A study of Mus musculus with 6 samples.

Results

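The genes described here are those of the enzymes that write and erase DNA methylation in mouse cells, with 1 gene that reads it. They were taken by name as the table rows whose Ensembl identifier belongs to *Dnmt1*, *Dnmt3a*, *Dnmt3b*, *Uhrf1*, *Tet1*, *Tet2*, *Tet3*, *Tdg* or *Mbd2* in the GENCODE mouse annotation, which gave 9 of the 56953 rows. The study sequenced poly-A selected RNA from 2 lines of mouse embryonic fibroblasts (MEFs), the connective tissue cells that grow out of embryos. Wild-type cells gave 3 libraries, named WT, and a Gαq/11 knockout line gave the other 3, named GαqKO after the labels. Gαq and Gα11 are the alpha subunits that pass signals from many receptors to phospholipase C. Both lines came from the same outside laboratory and were grown in the same serum-containing medium, with no treatment named for either. No strain, embryo age or number of embryos is given in the sources used here, and 1 line stands for each genotype, so that the genotype and any other difference between the 2 lines cannot be told apart. Values are normalized counts, meaning the reads of a gene divided by 1 size factor per library.

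The label was checked on the genes it names. *Gna11*, which encodes Gα11, had 2148 ± 29.0 normalized counts in WT and 451.6 ± 28.7 in the libraries labelled GαqKO (SD, n = 3 each), a fall of 2.25 on the log2 scale (limma, adjusted p = 9.16e-13). *Gnaq*, which encodes Gαq, had 1691 ± 48.5 and 1926 ± 36.0, a rise of 0.19 (limma, adjusted p = 0.00212). The counts cover whole genes and would not show the loss of single exons, and the groups are therefore named by their labels throughout. At the protein level, the paper reports loss of Gαq in its GαqKO MEFs by Western blot and immunofluorescence. Reads on genes numbered between 9853000 and 12229175 in the 5 libraries where they could be recovered. WT and GαqKO libraries also differed far beyond these genes: of 14096 genes tested, 65.8% were called at an adjusted p under 0.05, 31.8% higher and 34.1% lower in GαqKO, and 20.7% were called with a log2 fold change over 1 or under -1 as well. For 69.6% of the genes tested the libraries of the groups did not overlap.

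Methylation of cytosine in CpG dinucleotides helps to keep genes, transposons and one parental copy of imprinted genes silent. DNMT3A and DNMT3B place new methyl groups, whereas DNMT1 copies the pattern to the daughter strand after replication, guided by UHRF1, which binds hemimethylated CpG. The TET enzymes oxidise 5-methylcytosine step by step, TDG cuts out the most oxidised forms so that base excision repair can restore cytosine, and MBD2 binds methylated CpG and brings in the NuRD remodelling and deacetylase complex.

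The start regions of 4 of these genes are shown for the contrast in CpG content between the maintenance pair, *Dnmt1* and *Uhrf1*, and *Dnmt3a* and *Tet3*. Counts of *Dnmt3a* and *Tet3* were lower in the libraries labelled GαqKO. So were those of *Tdg*, whose start region, with 17 CpG sites, is not shown. A link between CpG content and the change in counts was not tested. Each runs 5′ to 3′ on the strand of the gene, from 250 bases before to 50 bases after the start of the canonical GENCODE transcript in GRCm39, with every CpG in capitals. They lie at chr9:20864226-20864525 on the minus strand for *Dnmt1*, chr17:56610025-56610324 on the plus strand for *Uhrf1*, chr12:3856713-3857012 on the plus strand for *Dnmt3a* and chr6:83433325-83433624 on the minus strand for *Tet3*.
Dnmt1: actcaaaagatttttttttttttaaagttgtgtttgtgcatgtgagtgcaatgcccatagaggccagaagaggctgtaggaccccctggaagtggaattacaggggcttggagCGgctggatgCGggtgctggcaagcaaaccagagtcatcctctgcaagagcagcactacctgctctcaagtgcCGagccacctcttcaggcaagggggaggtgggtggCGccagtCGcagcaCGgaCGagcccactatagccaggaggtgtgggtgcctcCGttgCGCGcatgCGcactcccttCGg
Uhrf1: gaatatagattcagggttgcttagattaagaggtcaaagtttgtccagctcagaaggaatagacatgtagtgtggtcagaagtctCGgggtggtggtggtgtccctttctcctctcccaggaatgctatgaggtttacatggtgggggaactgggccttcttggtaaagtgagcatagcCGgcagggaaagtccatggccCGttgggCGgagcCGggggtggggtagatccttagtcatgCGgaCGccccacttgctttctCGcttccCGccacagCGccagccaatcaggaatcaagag
Dnmt3a: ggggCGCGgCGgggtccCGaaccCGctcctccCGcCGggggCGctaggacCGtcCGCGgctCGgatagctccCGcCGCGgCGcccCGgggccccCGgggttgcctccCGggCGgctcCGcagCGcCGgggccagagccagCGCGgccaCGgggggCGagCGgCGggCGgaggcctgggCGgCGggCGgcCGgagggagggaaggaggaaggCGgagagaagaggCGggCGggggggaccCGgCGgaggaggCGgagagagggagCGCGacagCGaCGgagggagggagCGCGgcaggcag
Tet3: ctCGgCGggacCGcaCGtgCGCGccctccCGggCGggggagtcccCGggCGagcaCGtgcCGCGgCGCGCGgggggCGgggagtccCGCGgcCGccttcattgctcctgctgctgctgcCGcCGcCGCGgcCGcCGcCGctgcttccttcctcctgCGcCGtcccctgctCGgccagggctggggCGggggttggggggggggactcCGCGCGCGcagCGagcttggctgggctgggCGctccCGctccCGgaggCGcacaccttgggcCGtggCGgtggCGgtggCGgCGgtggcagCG

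The start regions of *Dnmt3a* and *Tet3* held 46 CpG sites each, more than those of *Dnmt1* with 12 and *Uhrf1* with 10. Across the 21757 protein-coding genes the median was 11 CpG sites in 300 bases, and a count of 46 lay at percentile 99.1. Among the other genes, *Dnmt3b* had 22 CpG sites, *Tet2* 20, *Tdg* 17 and *Mbd2* 15, whereas *Tet1* had 5. The 11791 genes with a start region that entered the test had a median of 18. Both strands were searched for the exact E2F-type letters TTTCCCGC, TTTGGCGC, TTTGCCGC and TTTCGCGC, the only motifs searched. They stood in 0 of the 9 windows and in 2.82% of all windows, a share that 9 windows cannot tell from 0. Sites that differ by any letter were not counted, such as CTTCCCGC in the *Uhrf1* window. These are properties of the reference sequence, and DNA methylation itself was not measured in these libraries.

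**Figure D1:**
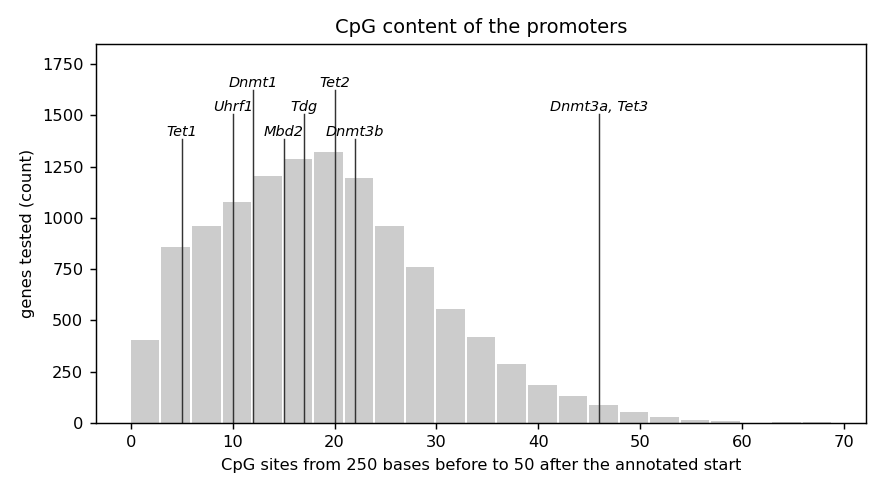
Number of CpG sites in the 300 bases around the annotated start (x axis) against the number of tested genes with that content (y axis, grey bars 3 sites wide), with vertical lines at the genes described. Dnmt3a and Tet3, with 46 sites each, stand in the right tail, and Tet1, with 5, in the left.

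Of the 9 genes, all of which passed the filter on low counts, 6 were called in the comparison of GαqKO with WT. *Mbd2*, *Uhrf1* and *Tet2* were higher, *Dnmt3a*, *Tet3* and *Tdg* were lower, and *Dnmt1*, *Dnmt3b* and *Tet1* were not called. These shares, 33.3% higher and 33.3% lower, are close to the 31.8% and 34.1% of all genes tested. None of the 9 went beyond a log2 fold change of 1 in either direction. Of all 9 genes, 6 had no overlap between the libraries of the groups, close to the 69.6% of all genes tested. These 6 are the genes called. The median log2 fold change of the 9 genes was 0.05, beside -0.01 over all genes tested. Fold changes are differences of log2(normalized count + 1), GαqKO minus WT, with their standard error (SE), and the adjusted p values come from limma over all 14096 genes.

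**Figure D2:**
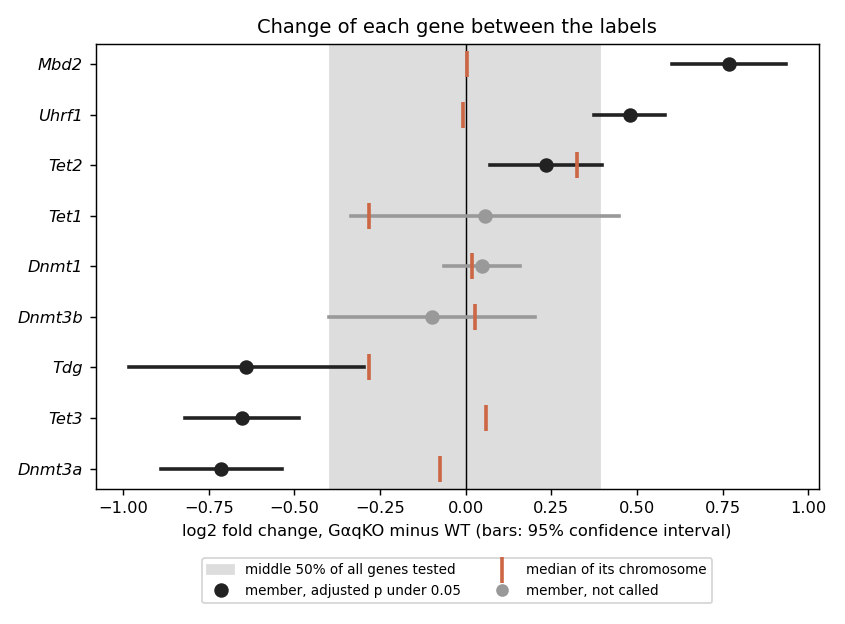
Log2 fold change of each gene, GαqKO minus WT (x axis), with its 95% confidence interval as a bar, black where the adjusted p was under 0.05 and grey otherwise. Mbd2 had the largest rise (0.77) and Dnmt3a the largest fall (-0.71), the shaded band spans the middle 50% of all genes tested, from -0.40 to 0.39, and orange ticks give the median of the genes on the same chromosome.

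The maintenance pair parted in these libraries. *Dnmt1*, the maintenance methyltransferase, had 1838, 1952 and 2082 normalized counts in WT replicates 1, 2 and 3 and 2058, 2032 and 1973 in GαqKO. The groups overlapped, with a log2 fold change of 0.05 (SE 0.05, adjusted p = 0.427) and a 95% confidence interval from -0.06 to 0.16, which leaves room for a change of that size in either direction. *Uhrf1*, its guide to hemimethylated DNA, had 1595, 1517 and 1555 normalized counts in WT against 2236, 2055 and 2219 in GαqKO. Every library labelled GαqKO was above every WT library, and the log2 fold change was 0.48 (SE 0.05, adjusted p = 1.03e-06). Within a library, the log2 difference of *Uhrf1* minus *Dnmt1* moved from -0.33 ± 0.11 in WT to 0.10 ± 0.08 in GαqKO (SD, n = 3; exact permutation test, two-sided, p = 0.1, the smallest that 3 against 3 can give; 0.125 adjusted over 5 such differences).

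Because *Uhrf1* and *Dnmt1* act at replication forks, both were set against 19 replication genes, a list that holds the MCM helicase subunits, PCNA and the licensing factors. Of these 19, 7 were higher (36.8%) and 6 lower (31.6%) in GαqKO, near the 31.8% and 34.1% of all genes tested. *E2f1*, a transcription factor of S phase entry, rose most (1.17, limma, adjusted p = 5.18e-11), and *Cdc6*, a helicase loader, fell most (-0.44, limma, adjusted p = 3.71e-05). *Uhrf1* minus the mean of the replication genes was 0.61 ± 0.05 in WT and 0.97 ± 0.03 in GαqKO on the log2 scale, with no overlap of the libraries (exact permutation p = 0.1, 0.2 adjusted over both genes). For *Dnmt1* this difference was 0.93 ± 0.11 and 0.87 ± 0.04, and the libraries overlapped (exact permutation p = 0.5, adjusted 0.5). Among 10 mitosis genes, 5 were higher (50%) and 3 lower (30%). *Ccna2*, which encodes cyclin A2, rose most (1.08, limma, adjusted p = 2.54e-10), and *Aurkb*, a kinase of chromosome segregation, fell most (-0.65, limma, adjusted p = 1.35e-07). The part of cell cycling in the *Uhrf1* difference was not tested.

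A second locus carries much of the *Uhrf1* sequence. The processed pseudogene *Gm5648* matched 43.7% of the *Uhrf1* transcript at 97% identity or more, with a longest match of 1590 bases. More counts stood at the pseudogene than at the gene itself: 2449, 2299 and 2394 in WT and 3401, 3308 and 3126 in GαqKO. Its log2 fold change was 0.46 (limma, adjusted p = 9.72e-07), and which of the 2 loci gave these reads cannot be told apart. With the counts of both loci summed, WT had 3936 ± 114 and GαqKO 5448 ± 164, a log2 fold change of 0.47 (SE 0.04, limma, adjusted p = 3.04e-07).

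The de novo enzymes differed from each other. *Dnmt3a* had 918, 927 and 1123 normalized counts in WT and 616, 638 and 549.8 in GαqKO. No library overlapped between the groups, WT replicate 3 was the highest, and the log2 fold change was -0.71 (SE 0.08, adjusted p = 3.84e-06), and the mean count fell by 39.2%. *Dnmt3b* was far lower in counts, at 109.6, 107 and 118 in WT and 96.7, 118 and 98.7 in GαqKO. The groups overlapped, and the log2 fold change was -0.10 (SE 0.14, adjusted p = 0.555) with a 95% confidence interval from -0.40 to 0.20, which does not reach the fall of *Dnmt3a*. The log2 difference of *Dnmt3b* minus *Dnmt3a* went from -3.13 ± 0.10 to -2.52 ± 0.12, with no overlap (exact permutation p = 0.1, adjusted 0.125). *Dnmt3l*, the catalytically inactive partner of the de novo enzymes in germ cells, had at most 4.63 normalized counts in any library and was not tested.

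**Figure D3:**
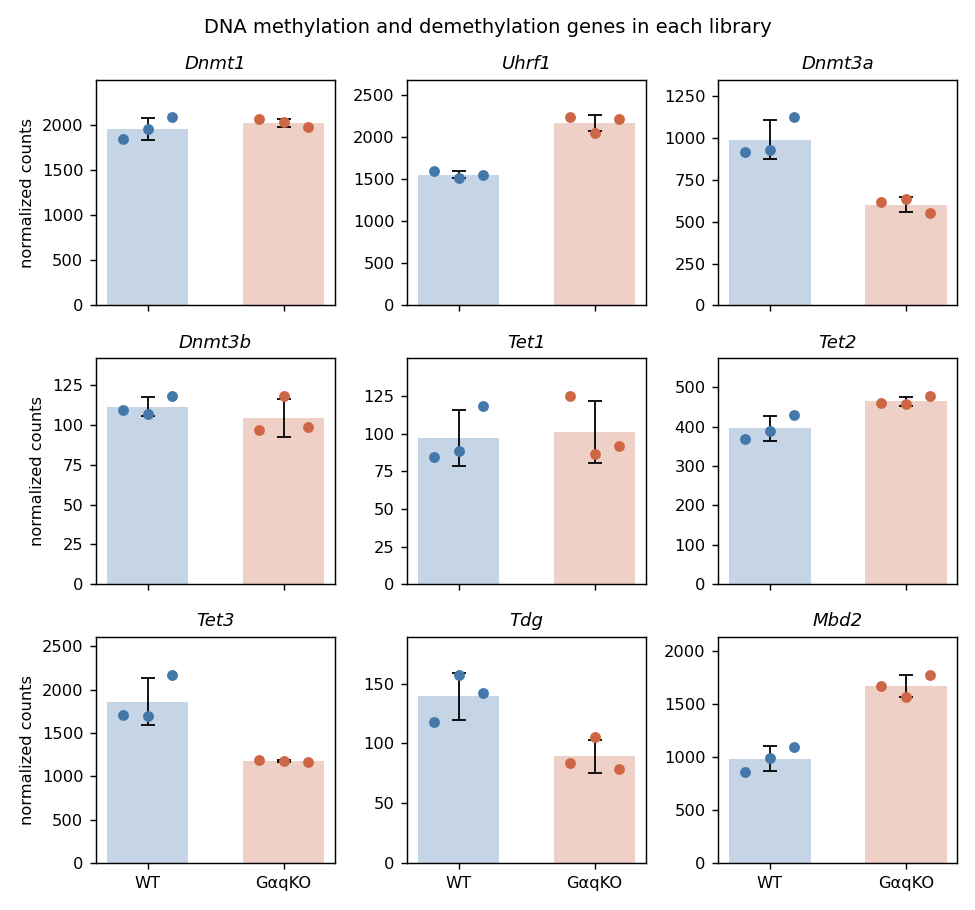
Normalized counts (y axis, a separate linear scale from 0 for each gene) of the 9 genes in WT and GαqKO, with 1 point per library in the order of replicates 1 to 3, bars at the mean and error bars of 1 SD (n = 3). Points of the groups do not overlap for Uhrf1, Dnmt3a, Tet2, Tet3, Tdg and Mbd2, and they overlap for Dnmt1, Dnmt3b and Tet1.

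The TET dioxygenases moved in different directions. *Tet3*, the member that lies highest here, had 1711, 1696 and 2169 normalized counts in WT and 1185, 1172 and 1165 in GαqKO. The GαqKO libraries lay within 1 narrow range, all below WT, and WT replicate 3 stood above the other WT libraries. The log2 fold change was -0.65 (SE 0.08, adjusted p = 5.37e-06), and -0.54 without WT replicate 3. *Tet2* had 367.6, 389.5 and 429.5 normalized counts in WT and 459, 457 and 477 in GαqKO, with no overlap and a log2 fold change of 0.23 (SE 0.08, adjusted p = 0.0148).

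The rise of *Tet2* was the least secure of the 6 calls. The 734 tested genes on its chromosome 3 had a median log2 fold change of 0.32, and with each chromosome's median removed *Tet2* was at -0.091 (limma, adjusted p = 0.313). Its adjusted p was 0.0613 without WT replicate 1, 0.0548 without GαqKO replicate 3 and 0.196 in DESeq2 on the 5 libraries with recovered reads. *Tet1*, the enzyme prominent in embryonic stem cells, had 84.6, 88.4 and 118 normalized counts in WT and 125, 86.7 and 91.6 in GαqKO. These overlapped, and the log2 fold change of 0.06 (SE 0.18, adjusted p = 0.80) had a 95% confidence interval from -0.34 to 0.45. At this depth a change of *Tet1* inside that interval was not detectable.

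The balance within the TET family could be read without regard to scaling. The log2 difference of *Tet3* minus *Tet2* was 2.22 ± 0.11 in WT and 1.34 ± 0.04 in GαqKO, a change of -0.89 with no overlap of the libraries (exact permutation p = 0.1, adjusted 0.125). *Tet1* minus *Tet3* changed by 0.71, from -4.25 ± 0.07 to -3.54 ± 0.27, also without overlap (exact permutation p = 0.1, adjusted 0.125). *Tet1* minus *Tet2* went from -2.03 ± 0.15 to -2.21 ± 0.29 with overlapping libraries (exact permutation p = 0.3, adjusted 0.3).

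*Tdg*, the glycosylase that removes the oxidised bases, had 118, 157 and 142.5 normalized counts in WT and 83.6, 105 and 78.5 in GαqKO. All GαqKO libraries were below all WT libraries, with a log2 fold change of -0.64 (SE 0.16, adjusted p = 0.00296). The 667 tested genes of its chromosome 10 had a median of -0.28, and with that median removed *Tdg* was at -0.36 (limma, adjusted p = 0.0659), while DESeq2 on 5 libraries gave an adjusted p of 0.0573. Other annotated genes share 57.1% of the *Tdg* exon bases. Transcripts of 5 other genes, *Glt8d2* and 4 pseudogene copies, match 79.0% of the *Tdg* transcript at 97% identity or more. That 79.0% can include exon bases shared at the locus itself. Of its 4 pseudogene copies, *Tdg-ps* had 51.3 ± 9.42 normalized counts in WT and 32.5 ± 5.52 in GαqKO (n = 3 each) and the other 3 were listed at 0. With the copies summed in, the log2 fold change was -0.64 (SE 0.12, limma, adjusted p = 3.46e-04).

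*Mbd2*, the methyl-CpG reader, changed most in size. It had 863.5, 993 and 1098 normalized counts in WT and 1669.6, 1567 and 1778 in GαqKO. Each GαqKO library was above each WT library, and the log2 fold change was 0.77 (SE 0.08, adjusted p = 9.91e-07), or 69.7% more counts. It stayed between 0.68 and 0.85 when any 1 library was left out. By distance of centred log2 values over the 6 libraries, the pattern of *Mbd2* was compared with those of 10032 genes that averaged 100 normalized counts or more. The 5 nearest were *Cep89* (distance 0.0871), *5031425E22Rik* (0.101), *Vamp4* (0.124), *Afg2a* (0.124) and *Mapk1ip1* (0.146), with log2 fold changes from 0.79 to 0.82. Fold changes near that of *Mbd2* are built into this measure, and shared regulation was not tested.

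Levels of different genes were compared per kilobase of merged exons. *Uhrf1* stood highest in WT, at 295 ± 7.31 normalized counts per kilobase, followed by *Dnmt1* at 230.2 ± 14.3, *Mbd2* at 112 ± 13.3, *Tet3* at 111 ± 16.1 and *Dnmt3a* at 58.1 ± 6.8 (SD, n = 3). The lower end held *Tet2* at 22.3 ± 1.77, *Dnmt3b* at 18.0 ± 0.94, *Tdg* at 14.8 ± 2.11 and *Tet1* at 6.28 ± 1.19. In this order only the neighbours *Mbd2* and *Tet3* overlapped between their libraries. The order was the same in GαqKO, with *Uhrf1* at 411 ± 18.9, *Dnmt1* at 238 ± 5.15, *Mbd2* at 189.7 ± 12 and *Tet3* at 70.3 ± 0.60 per kilobase, and there no neighbours overlapped. *Dnmt3a* was at 35.3 ± 2.70, *Tet2* at 26.2 ± 0.64, *Dnmt3b* at 16.9 ± 1.89, *Tdg* at 9.45 ± 1.5 and *Tet1* at 6.54 ± 1.34.

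The order rests on the length used and on where reads were placed. Over the exons of at least 150 bases (the read length) of the canonical transcript, *Mbd2* came first in both groups, followed by *Uhrf1* and *Dnmt1*. That length differs from the merged exons in the transcript taken as well as in the exon size: for *Mbd2* the merged exons span 8.81 kb, the canonical transcript 1.95 kb and its long exons 1.58 kb, while the count stays that of the whole gene. With the reads at the pseudogene copies summed in, *Uhrf1* stood first on either length, at 746 ± 21.6 per kilobase of merged exons in WT and 1032 ± 31.1 in GαqKO. *Tdg* summed in this way was at 20.2 ± 1.71 in WT, where its libraries overlapped those of *Dnmt3b* and *Tet2*, and at 12.9 ± 1.06 in GαqKO. Fold changes between groups do not depend on the length.

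As shares of their family's summed level per kilobase, *Tet3* made up 79.5% ± 0.87 of the TET transcripts in WT and 68.3% ± 0.78 in GαqKO (SD, n = 3). *Tet2* went from 16.0% ± 1.0 to 25.4% ± 0.78, and *Tet1* from 4.47% ± 0.24 to 6.33% ± 1.2. Of the methyltransferase transcripts, *Dnmt1* held 75.2% ± 0.99 in WT and 82.0% ± 1.0 in GαqKO. *Dnmt3a* held 18.9% ± 0.98 and 12.2% ± 0.59. These libraries did not overlap between the groups for the 5 genes named, whereas the share of *Dnmt3b*, 5.88% ± 0.23 and 5.81% ± 0.58, did. Shares in a family depend on each other. Those of *Dnmt1* and *Tet1*, whose counts were not called, rise when *Dnmt3a* or *Tet3* falls.

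**Figure D4:**
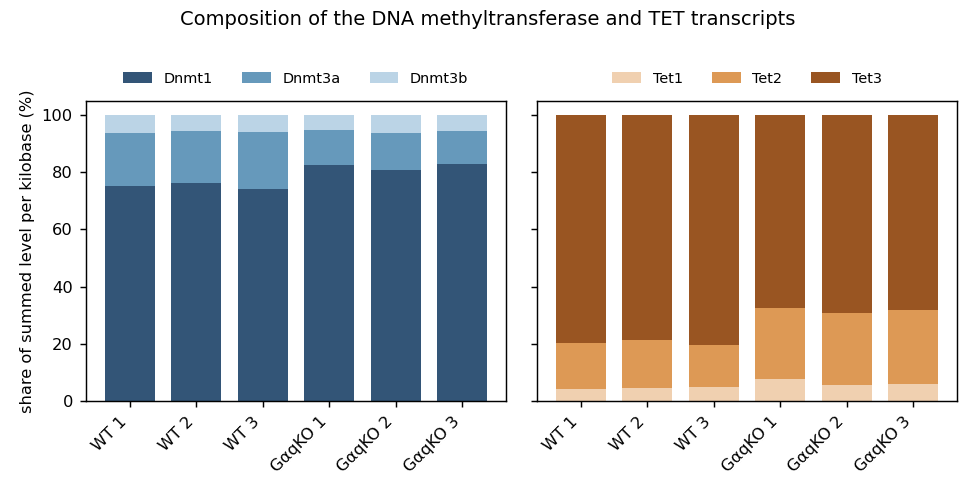
Share of each gene (y axis, percent) in the summed level per kilobase of Dnmt1, Dnmt3a and Dnmt3b (left) and of Tet1, Tet2 and Tet3 (right), with 1 stacked bar for each of the 6 libraries. Tet3 takes 78.6% to 80.3% of the TET bar in the WT libraries and 67.6% to 69.1% in the libraries labelled GαqKO, and Dnmt3a takes 18.1% to 20% and 11.5% to 12.7% of the methyltransferase bar.

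Around these enzymes, 6 lists of genes were read out: partners of the writers, other methyl-CpG readers, NuRD subunits, base excision repair, TET partners with cofactor supply, and the methyl donor pathway. Of their 68 genes 65 were tested, and 10 were higher, 37 lower and 18 not called in GαqKO, where 31.8% and 34.1% of all genes tested were higher and lower. Past a log2 fold change of 1 there was 1 riser and there were 7 fallers among the 65. Of all genes tested, 20.7% were called past it in either direction. The median over the 65 was -0.22, beside -0.01 over all genes tested. The 31.8% and 34.1% of all genes are also the background for each list below.

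Of 11 writer partners tested, 6 were lower and 1 was higher. *Nsd1*, whose product places the H3K36 dimethylation that DNMT3A binds, fell from 1164 ± 74.8 to 437 ± 18.4 normalized counts (log2 fold change -1.41, limma, adjusted p = 2.66e-10). *Cdca7l* rose (0.51, limma, adjusted p = 3.40e-05). *Uhrf2*, the paralog of *Uhrf1*, went the other way from it, from 1688 ± 86.3 to 1409 ± 15.6 (log2 fold change -0.26, limma, adjusted p = 3.85e-04).

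The list of other methyl-CpG readers was drawn by a methyl-CpG-binding domain or by zinc fingers that bind methylated DNA. The domain alone does not show that a protein binds methylated CpG. Of the 10 genes in this list, 0 were higher and 8 were lower at the adjusted threshold in limma. *Zbtb4*, a zinc finger protein that binds methylated DNA, fell most, from 551 ± 39.1 to 288 ± 28.6 (log2 fold change -0.93, limma, adjusted p = 4.86e-07). *Mbd3*, the paralog that takes the place of MBD2 in NuRD, was lower as well, at 3473 ± 88.8 in WT and 2750.2 ± 74.6 in GαqKO (log2 fold change -0.34, limma, adjusted p = 9.10e-06). Of the 11 NuRD subunits 7 were lower and 0 higher in limma. At an unadjusted p under 0.05, 0 readers and 0 subunits were higher, and 0 were in edgeR or DESeq2, whereas 1 subunit was called higher without WT replicate 3. *Mta3* fell from 165 ± 20.1 to 59.5 ± 13.0 (log2 fold change -1.47, limma, adjusted p = 6.80e-06), and the catalytic subunit *Hdac1* from 217.5 ± 39.6 to 122 ± 15.2 (-0.82, limma, adjusted p = 1.92e-04).

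In the repair list 3 of 13 genes tested were higher and 7 lower. *Neil3*, a glycosylase for oxidised bases, rose from 677 ± 82.9 to 1897 ± 87.9 normalized counts (log2 fold change 1.49, limma, adjusted p = 1.06e-09). *Gadd45g* and *Gadd45b*, stress genes linked to DNA demethylation, fell by 2.31 and 1.27 on the log2 scale (limma, adjusted p = 8.98e-11 and 9.12e-10). *Smug1* and *Mbd4*, glycosylases that can act beside TDG, were lower, at -0.57 and -0.42 (limma, adjusted p = 1.97e-06 and 9.97e-04). In the other direction, *Ung* and *Parp1* were higher, at 0.24 and 0.14 (limma, adjusted p = 0.00209 and 0.0122). *Gadd45a* was not called (0.036, limma, adjusted p = 0.829).

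Among the TET partners and cofactor genes 3 of 10 were higher and 5 lower, and the count of lower genes was 2 without WT replicate 2 and 3 without GαqKO replicate 1. *Cxxc4*, which encodes the CXXC protein IDAX that binds TET2, had 55.3, 58.3 and 58.0 normalized counts in WT and was at 0 in every GαqKO library, at least 19-fold lower against a floor of 3 counts per library. *Cxxc5*, a relative of it, fell from 304.5 ± 11.9 to 30.1 ± 1.06 (log2 fold change -3.29, limma, adjusted p = 1.08e-10). *D2hgdh*, which clears the TET inhibitor D-2-hydroxyglutarate, rose most in that list (0.58, limma, adjusted p = 0.00213).

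Of the 11 methyl donor genes 3 were higher and 5 lower. *Ahcy*, which removes the methylation by-product S-adenosylhomocysteine, fell from 1008 ± 15.0 to 388 ± 14.6 (log2 fold change -1.38, limma, adjusted p = 1.48e-10). *Mat2a*, which makes the methyl donor S-adenosylmethionine, rose from 3486 ± 226 to 4208 ± 70 (0.27, limma, adjusted p = 2.40e-04).

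**Figure D5:**
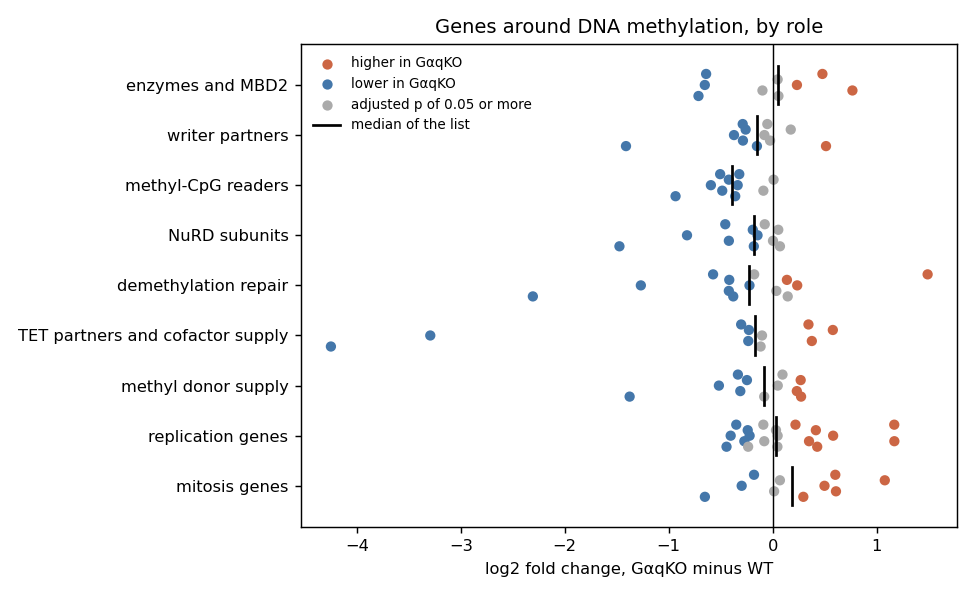
Log2 fold change, GαqKO minus WT (x axis), of each tested gene in the named lists (rows), orange where higher and blue where lower at an adjusted p under 0.05 and grey otherwise, with the list median as a black line. Cxxc4, at 0 in every GαqKO library, is drawn at its bound of -4.25, the methyl-CpG readers and NuRD subunits hold no orange point, and the enzymes with MBD2 lie between -0.71 and 0.77.

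The cell type of the label was checked beside these results. All 11 fibroblast markers tested were called, 5 higher and 6 lower in GαqKO, where 65.8% of all genes tested were called. *Pdgfra* had 19.6 ± 2.23 normalized counts in WT and 2319.7 ± 42.0 in GαqKO, *Dcn* 32.1 ± 3.00 and 1663 ± 53.8, and *Col1a1* 16671 ± 1168 and 5775 ± 272. *Lum* was at 0 in every WT library and at 3.76, 1.16 and 4.03 in GαqKO and was not tested. Vimentin (*Vim*) was abundant in both groups, at 41785 ± 2519 and 33508 ± 729. The 6 epithelial markers summed to between 787 and 882 in WT and between 10.1 and 27.8 in GαqKO. That sum came mainly from *Krt19* and *Cdh1*, at 547 ± 50 and 238 ± 3.06 in WT, while *Epcam* had at most 8.09 and *Krt5* at most 0.97 in any library. Endothelial markers summed to 12.6 to 23.0 in WT and 18.8 to 26.6 in GαqKO, leukocyte markers to 104 to 115 and 69.5 to 103, and pluripotency markers to 15.7 to 29.1 and 7.05 to 13.9. *Cd68*, a macrophage marker, was lower in GαqKO, at 93.0 ± 9.91 and 66.9 ± 12.7 (log2 fold change -0.48, limma, adjusted p = 0.0296). The leukocyte sum came mainly from *Cd68*. In any library *Csf1r* had at most 20.4, *Adgre1* at most 6.94 and *Ptprc* at most 3.13, and *Itgam* was at 0 throughout. *Nanog*, the only pluripotency marker tested, was lower as well, at 17.8 ± 3.4 and 6.5 ± 1.3 (log2 fold change -1.32, limma, adjusted p = 0.00517), while *Pou5f1* and *Zfp42* were at or near 0. Counts of *Nanog* were low, and it passed the filter through the WT libraries only, so a call could only be lower. In bulk RNA, fewer cells of a type and less RNA per cell cannot be told apart, and the part of these marker differences in the enzyme results was not tested.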

How the data were processed

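Per the paper's methods and the submitters' processing notes, the authors aligned paired-end reads of 150 bases to GRCm39 with Rbowtie2, counted them per gene with featureCounts on a GENCODE annotation, and used DESeq2. The deposited values are a signal, gene counts divided by 1 size factor per library. Tool versions, the strand setting and the handling of reads over overlapping genes are not given in the sources used here, so reads of overlapping or antisense genes cannot be told apart. Symbols, exons and start sites came from GENCODE vM39, which matched 56310 of 56953 identifiers (98.9%).

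The members and gene lists were chosen with earlier results of these data known. Limma 3.58.1 with a trend (R 4.3.3) was fitted to log2(normalized count + 1) over 14096 genes, those that reached 10 normalized counts in 3 or more libraries, two-sided, with Benjamini-Hochberg adjustment over all of them. A gene was called at an adjusted p under 0.05. Fold changes on this scale understate those of low genes. Within-library differences used exact permutation tests. In 5 libraries all nonzero values were whole multiples of 1 step (100% within 0.01), and edgeR 4.0.16 and DESeq2 1.42.0 were run on these reads. GαqKO replicate 3 was left out of both, because its recovered reads did not pass a check of the unit. edgeR on these reads called 8377 of 13637 genes. Replicates differed by more than counting noise (chi-square per gene 2.44 to 5.5), the paper states biological replicates, and the labels do not say how the cultures were kept apart, so p-values measure the spread between these libraries.

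Named are all members, both targeted genes, the largest called rise and fall of each other list, every pathway gene past both thresholds and the 5 genes nearest to the member that changed most. *Uhrf2*, *Mbd3*, *Hdac1*, *Smug1*, *Mbd4*, *Ung*, *Parp1*, *Gadd45a*, *Dnmt3l*, *Dcn*, *Vim* and the marker and imprinted genes given beside these were named outside this rule after their values were seen. Alternatives were TMM scaling, other filters, pseudocounts of 0.5 and 5, no trend, a replicate block, the count tests, each library left out and chromosome medians removed. Summing near-identical copies into fold changes and levels, found with BLAST 2.17.0 over matches of at least 150 bases, and the length of exons of at least 150 bases were added after seeing the data. Copies were searched for the members only, and not for the genes of the other lists. How the alignment placed reads that span exon junctions was not tested. The script of the tests was tested on simulated data. Python 3.11.15 with pandas 2.3.3, numpy 2.4.6 and matplotlib 3.10.9 was used.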

Additional observations from a re-analysis of the deposited data

How the results depend on the processing

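The directions and calls of *Dnmt1*, *Dnmt3a*, *Dnmt3b*, *Uhrf1*, *Tet3* and *Mbd2* were the same under each alternative run, and 2 or 3 of the 9 genes were called higher and 2 or 3 lower. Leaving out each library in turn gave log2 fold changes of 0.0036 to 0.093 for *Dnmt1*, -0.76 to -0.62 for *Dnmt3a*, -0.19 to -0.046 for *Dnmt3b*, 0.46 to 0.52 for *Uhrf1*, -0.71 to -0.54 for *Tet3*, 0.68 to 0.85 for *Mbd2*, -0.76 to -0.55 for *Tdg*, 0.18 to 0.29 for *Tet2* and -0.10 to 0.20 for *Tet1*, which was below 0 without WT replicate 1, WT replicate 2 or GαqKO replicate 1. *Tet2* lost its call without WT replicate 1 or GαqKO replicate 3 and in DESeq2 (0.22), and with chromosome medians removed it was at -0.091. *Tdg* lost its call in DESeq2 (-0.56) and with chromosome medians removed (-0.36). The cause was not tested. Same-numbered libraries did not deviate together (correlations -0.082, -0.016 and -0.058). These values give no sign of pairing by number, and they cannot show that the samples are unpaired. A replicate block called 8962 of all genes against 9279 without it and changed no call of the 9 genes. Of 146 recomputed fold changes of the 9 genes, 137 kept their direction and side of the threshold, 5 lost the call and 4 reversed. Of the pathway genes, 9 to 12 were called higher and 31 to 38 lower. Levels per kilobase moved with the length and with the summed copies. *Tet1*, *Dnmt3b* and *Tdg* have the fewest counts of the 9 genes and the widest intervals.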

Other observations

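Germline genes whose promoters are methylated in somatic cells stayed low in both lines. Of 15 such genes, 13 had too few counts to be tested, and the whole list summed to between 22.3 and 54.3 normalized counts in WT and between 57.4 and 74.0 in GαqKO. Of the 2 tested, *Brdt*, a testis bromodomain gene, had 32.4, 7.77 and 22.4 normalized counts in WT and 41.3, 46.3 and 45.3 in GαqKO, with a log2 fold change of 1.25 (SE 0.39, limma, adjusted p = 0.0127). It was not called with limma's prior spread held constant or in DESeq2. *Sycp1*, of the synaptonemal complex, was not called (limma, adjusted p = 0.405).

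Some imprinted genes, whose parental copies carry different methylation, held larger differences than the enzymes. Others did not: *Igf2r* (-0.58) and *Mest* (0.36, not called) lay within the range of the enzymes. Of 16 listed, 15 were matched to the table and 6 were tested. Of these 6, 1 was higher and 4 were lower in GαqKO, beside 31.8% and 34.1% of all genes tested. *Dlk1*, *Peg3* and *Peg10* passed the filter only through the group where they were high, so their calls could go in 1 direction only. They do not reach the filter when a library of that group is left out. This leaves 0 higher without any 1 GαqKO library and 2 lower without any 1 WT library. A filter of at least 10 counts in every library also left 0 higher and 2 lower. *Dlk1* was at 0 in every WT library and at 1469.6, 1542 and 1399.8 in GαqKO, at least 490-fold higher against a floor of 3 counts. *Peg10* had 2325, 2267 and 2571 in WT and at most 1.01 in GαqKO, at least 796-fold lower. *Igf2*, *Nnat* and *Cdkn1c* were listed at 0 in all 6 libraries. The methylation of these loci was not measured.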
